A study of Mus musculus with 8 samples.

Results

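Lysosomes are the acidic compartments in which cells degrade proteins, glycans and lipids, and the transcripts of 45 lysosomal genes were followed here in mouse liver. The genes were a named list, taken by symbol from the deposited table, and all 45 were found among its 56691 genes. They were 9 cysteine peptidases, 3 aspartic and serine peptidases, 10 glycosidases, 3 sulfatases, 6 genes of lipid breakdown and sterol transfer, 5 membrane proteins, 5 subunits of the V-ATPase and a group of 4 made up of Tfeb, Grn, Cd68 and Laptm5. The list was not drawn up from measured values of these libraries, but it was proposed with earlier results of them in view. Whole-liver RNA was sequenced in 8 libraries from wild-type C57BL/6J mice. From 6 weeks of age all animals were fed HFD-CDAA, a diet rich in fat, lacking choline and with defined amino acids, over 4 weeks, so the controls carry the diet too. In 4 libraries, plive-Con 1 to 4, the mice had been given the control plasmid plive-Con by hydrodynamic tail-vein injection, in which a large volume drives plasmid into liver cells. In the other 4, plive-Tet1 1 to 4, they had been given plive-Tet1, and the series title speaks of Tet1 overexpression in hepatocytes. The sources used here give neither the plasmid's promoter nor the share of cells that took it up. Titles and the treatment protocol name Tet1 for all 4 of these libraries. A treatment entry for plive-Tet1 2, 3 and 4 reads Tet2, Tet3 and Tet4 instead, and the titles were followed.

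Lysosomal hydrolases are made in the endoplasmic reticulum, most of them receive a mannose 6-phosphate tag in the Golgi, and receptors for that tag carry them to the lysosome. The V-ATPase pumps protons into the lumen, which keeps it at the acid pH at which the hydrolases work, and heavily glycosylated membrane proteins such as LAMP1 line its inner face. The transcription factor TFEB and its relatives of the MiT/TFE family bind a promoter element known as CLEAR (coordinated lysosomal expression and regulation), whose centre is an E-box. In liver, hepatocytes and macrophages both carry many lysosomes, and some members, among them Cd68, Ctss and Ctsk, are expressed mainly in macrophages and their relatives.

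Promoter sequence was available for 37 of the 45 members, as RefSeq windows of 300 bases on GRCm38.p6, from 250 bases before to 50 after an annotated start. No window was matched for Galns, Atp6v1b2, Ctsb, Npc1, Asah1, Atp6v0d2, Atp6v1h and Ctsh. The windows were searched for the CLEAR core TCACGTGA and for the E-box CACGTG within it. Each reads the same on both strands, and every core also counts as an E-box. The core was found in 7 of the 37 members (18.9%), against 304 of 27025 genes with a window (1.12%). The E-box was found in 15 members (40.5%), against 2187 genes (8.09%). Such a match is a description of the letters, not evidence of a bound site. The element is named for lysosomal genes, so a higher share among the members is not an independent result. The stretches below are printed from 5′ to 3′ on the strand of the gene, because they hold the core in each of the 7 members that have it, and capitals mark the core. In the shorter stretches a further core or E-box is left in lower case. Gla is shown as the whole window, since it holds 2 cores and is the member with the smallest p between the groups.
Gla, chrX:134600956-134601255 (minus strand): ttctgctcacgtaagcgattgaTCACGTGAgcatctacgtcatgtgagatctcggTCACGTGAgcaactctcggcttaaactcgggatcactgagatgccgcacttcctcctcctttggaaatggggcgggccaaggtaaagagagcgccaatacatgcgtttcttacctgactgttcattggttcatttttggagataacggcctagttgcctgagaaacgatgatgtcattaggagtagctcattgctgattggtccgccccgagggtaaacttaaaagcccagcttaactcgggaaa
Ctsd, chr7:142387893-142387952 (minus strand): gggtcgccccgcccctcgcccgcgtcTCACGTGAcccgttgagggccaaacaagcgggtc
Ctsa, chr2:164833734-164833793 (plus strand): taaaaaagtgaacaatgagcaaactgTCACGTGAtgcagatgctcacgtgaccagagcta
Cln3, chr7:126583325-126583384 (minus strand): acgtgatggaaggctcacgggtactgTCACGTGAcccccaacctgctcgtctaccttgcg
Mcoln1, chr8:3500447-3500506 (plus strand): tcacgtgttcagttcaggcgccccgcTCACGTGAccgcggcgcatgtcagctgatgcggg
Atp6v0d1, chr8:105566035-105566094 (minus strand): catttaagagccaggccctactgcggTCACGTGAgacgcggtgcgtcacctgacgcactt
Atp6v1a, chr16:44139358-44139417 (minus strand): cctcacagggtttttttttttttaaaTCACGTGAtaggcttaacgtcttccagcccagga
Ctss and Ctsk, the members with the highest correlation with the macrophage markers, held neither motif, and their whole windows are printed for comparison, with no letter in capitals.
Ctss, chr3:95526536-95526835 (plus strand): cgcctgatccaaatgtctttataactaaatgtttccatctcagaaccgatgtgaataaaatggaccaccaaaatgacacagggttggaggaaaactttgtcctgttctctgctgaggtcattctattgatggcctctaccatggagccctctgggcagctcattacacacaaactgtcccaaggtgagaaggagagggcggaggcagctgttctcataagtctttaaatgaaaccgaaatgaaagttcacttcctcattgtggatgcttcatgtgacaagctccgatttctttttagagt
Ctsk, chr3:95498960-95499259 (plus strand): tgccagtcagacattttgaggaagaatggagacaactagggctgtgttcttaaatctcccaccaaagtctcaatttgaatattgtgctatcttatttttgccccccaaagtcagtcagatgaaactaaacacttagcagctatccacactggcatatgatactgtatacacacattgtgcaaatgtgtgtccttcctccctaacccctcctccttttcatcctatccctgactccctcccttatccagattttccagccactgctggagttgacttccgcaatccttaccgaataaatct

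The cores lay at different distances from the start. Counted to the first base of the E-box, that of Atp6v0d1 was 3 bases before the start and the pair of Gla were 194 and 227 bases before it. Ctsa had a core 12 bases before the start and another at base 6 after it. Lamp1 held 4 E-boxes between 61 and 15 bases before the start, none of them within the 8-base core, and was the member with the most. One stretch of Lamp1 is printed with the third of these E-boxes in capitals and its nearest neighbours on either side in lower case.
Lamp1, chr8:13159106-13159165 (plus strand): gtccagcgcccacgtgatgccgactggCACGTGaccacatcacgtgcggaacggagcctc
By role, the core was in both V-ATPase members that had a window, in 2 of 3 aspartic and serine peptidases (Ctsa, Ctsd), in 2 of 5 membrane proteins (Cln3, Mcoln1) and in 1 of 10 glycosidases (Gla). It was in none of the windows of 7 cysteine peptidases, 2 sulfatases, 4 lipid genes and the group of Tfeb, Grn, Cd68 and Laptm5. In these windows the lipid genes and the group with Tfeb also held no E-box. The map of motif positions shows these distances.

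**Figure D1:**
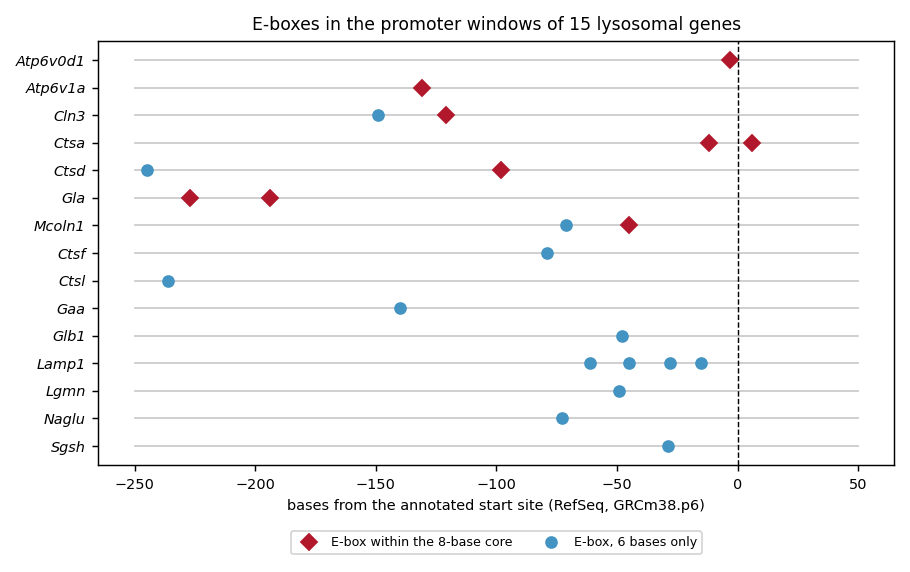
E-boxes in the promoter windows of the 15 members that hold one, by distance in bases from the annotated start (dashed line); grey lines span the 300-base window. Diamonds mark E-boxes within the 8-base core, present in 7 members, and circles mark the others, of which Lamp1 has 4.

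Gene counts summed to 15885113 in the smallest and 19850800 in the largest library, and mitochondrial genes took from 3.23% to 8.63% of them. On the first principal component, with 27.0% of the variance, plive-Con 4 stood apart with a score of 52.0, while the others lay between -19.0 and 3.72. The liver label was checked against 9 hepatocyte markers, which summed to between 93916 and 117815 CPM (counts scaled to a common library size after TMM). Tet1 itself collected 1, 9, 6 and 5 counts in plive-Con 1 to 4 and 9, 8, 12 and 5 counts in plive-Tet1 1 to 4, and the two-sided p of an exact permutation test over 70 assignments was 0.371. The smallest p this test allows is 0.0286. A higher Tet1 level in the plive-Tet1 libraries was therefore not detected, and the reason was not tested. Every comparison below is between libraries as labelled.

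Per length of transcript, the 45 members spanned a wide range of levels, given here in FPKM (read fragments relative to the length of the exons and the size of the library). The highest were Psap, which encodes the precursor of the saposins, at 568 ± 93.6 FPKM in plive-Con and 646 ± 91.4 in plive-Tet1, and Lamp1, the major lysosomal membrane glycoprotein, at 479.7 ± 60.05 and 557 ± 39.1 (SD, n = 4 in each group here and throughout). Ctsd, the aspartic peptidase cathepsin D, followed at 378 ± 67.3 and 453 ± 80.5 FPKM. Next came the cysteine cathepsins Ctsz (315 ± 40.4 and 330.0 ± 40.6) and Ctsb (248 ± 24.8 and 291 ± 34.8). The lowest were Tfeb, the transcription factor, at 2.10 ± 0.318 and 1.65 ± 0.282 FPKM, Sgsh, which encodes heparan N-sulfatase, at 1.92 ± 0.0968 and 2.04 ± 0.400, and Cln3, a membrane protein lost in a juvenile form of neuronal ceroid lipofuscinosis, at 2.92 ± 0.195 and 3.00 ± 0.806. Neighbours in this order mostly overlapped, as Ctsb and Ctss did with 215 ± 62.4 and 282 ± 83.3 FPKM for the latter. Sgsh and Tfeb also overlapped in both groups.

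Between these ends, the members formed a graded series. Below Ctss lay Ctsl (197 ± 43.1 and 232 ± 16.4 FPKM in plive-Con and plive-Tet1), Grn (131 ± 22.4 and 133 ± 16.9) and Lgmn (107 ± 13.5 and 120.3 ± 10.9). Hexa, Ctsh, Atp6v0d1, Cd68, Lamp2, Lipa, Ctsa, Npc2, Laptm5, Scarb2 and Fuca1 had group means from 31.2 FPKM (Fuca1, plive-Con) to 96.4 FPKM (Hexa, plive-Tet1). Atp6v1b2, Asah1, Tpp1, Man2b1, Ctsc, Neu1, Gusb, Ppt1, Npc1, Gaa, Naglu, Atp6v1a and Atp6v0d2 had group means from 9.15 FPKM (Atp6v0d2, plive-Con) to 29.8 FPKM (Atp6v1b2, plive-Tet1). Galns, Atp6v1h, Ctsk, Glb1, Gla, Manba, Ctsf, Mcoln1 and Ids lay below these, from 3.51 FPKM (Ids, plive-Con) to 8.82 FPKM (Galns, plive-Tet1). Together the 45 transcripts made up between 1.02% and 1.43% of the counts of a library.

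**Figure D2:**
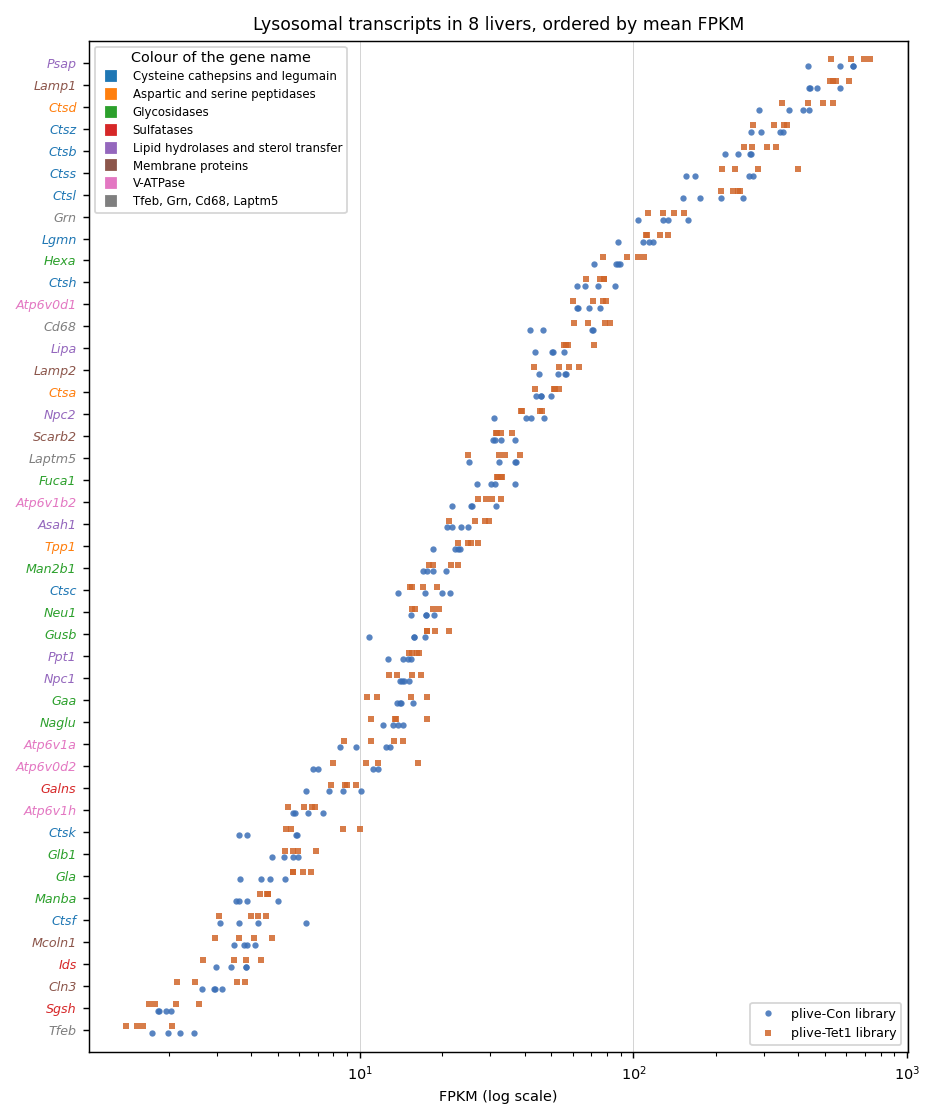
FPKM (log scale) of the 45 members in each of the 8 libraries, ordered by mean; circles are plive-Con and squares plive-Tet1, and the colour of a gene name gives its role. Psap and Lamp1 are at the top, Sgsh and Tfeb at the bottom, and in most rows the symbols of the groups lie among each other.

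Most members varied little between the 8 libraries. Their median coefficient of variation in CPM was 13.0%, against 17.8% over all 14533 genes tested, which were not matched to them in level. The widest were Ctsk, whose highest library was 2.55 times its lowest, Ctss (2.36 times), Atp6v0d2 (2.28 times) and Ctsf (2.24 times). The narrowest were Ctsa (1.16 times) and Ppt1 (1.18 times). The library-to-library coefficient of variation exceeded what counting alone would give, at 10.9% against 0.584% for the abundant Ctsb and 13.9% against 7.96% for the scarce Sgsh. Members did not all peak in the same library. Of the 45, plive-Con 3 was the lowest library for 16 (35.6%, against 13.0% of all genes), among them Ctsb, Ctsd, Ctss, Gla, Gusb, Hexa, Lipa and Psap. The highest library was plive-Con 4 for 10 members (22.2%, against 18.2% of all genes), plive-Tet1 1 for 10 (22.2% against 13.5%), plive-Tet1 2 for 9 (20% against 8.68%) and plive-Tet1 3 for 8 (17.8% against 13.5%). The last 8 were Glb1, Gaa, Naglu, Man2b1, Sgsh, Ppt1, Npc1 and Mcoln1, and of these Man2b1, Sgsh, Npc1 and Mcoln1 were lowest in plive-Tet1 1.

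Setting plive-Tet1 beside plive-Con asked whether lysosomal transcripts differ between livers given the Tet1 and the control plasmid. No member passed the test. Gla, Gusb, Ctsk, Cd68 and Lipa had the smallest p among members with higher values in plive-Tet1, and Tfeb, Ctsc, Ctsf, Gaa and Laptm5 among those with lower values, and the log2 fold changes of the 45 members ran from -0.40 (Tfeb) to 0.58 (Ctsk). By the quasi-likelihood test of edgeR, with p adjusted by Benjamini-Hochberg over 14533 genes, 0 of the 45 members were called at an adjusted p of 0.05, where the background share was 0.00% (0 genes). The adjusted p of every member rounded to 1.00. DESeq2 called 0 members, against 11 genes or 0.0757% of all. At an unadjusted p under 0.05, edgeR counted 2 members with higher values, Gla and Ctsk, against 1.91% of all genes, and 1 with a lower value, Tfeb, against 2.16%. These 3 members in 45 are few enough that the count depends on single libraries. Leaving out plive-Con 3 gave 0, leaving out plive-Tet1 2 gave 1 and leaving out plive-Con 1 gave 5. The CPM values of the groups did not overlap for 2 members, Gla and Gusb, against 2.28% of all genes.

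As a group the members leaned slightly towards higher values in plive-Tet1. A log2 fold change above 0, which means a higher value in plive-Tet1, was found for 31 of 45 members (68.9%), against 52.0% of all tested genes. The median was 0.06 for the members and 0.01 for all genes. Members are not replicates, and by library the groups overlapped. The median deviation of the members from their means over the 8 libraries, in log2 CPM, was 0.049, -0.077, -0.14 and -0.054 in plive-Con 1 to 4. It was 0.076, 0.084, 0.036 and -0.036 in plive-Tet1 1 to 4, with a pooled SD within groups of 0.068. The count of members with a higher value varied with the scaling, from 28 with DESeq2 size factors to 39 with library totals. It ran from 24 to 33 when single libraries were left out. Over all 14533 genes the same count was 7119 with DESeq2 size factors and 8972 with library totals, where their median was itself 0.05. The median of the members lay above that of all genes by 0.047, 0.049 and 0.051 with DESeq2 size factors, TMM and library totals. In whole liver, fewer cells of a type and less RNA per cell cannot be told apart.

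**Figure D3:**
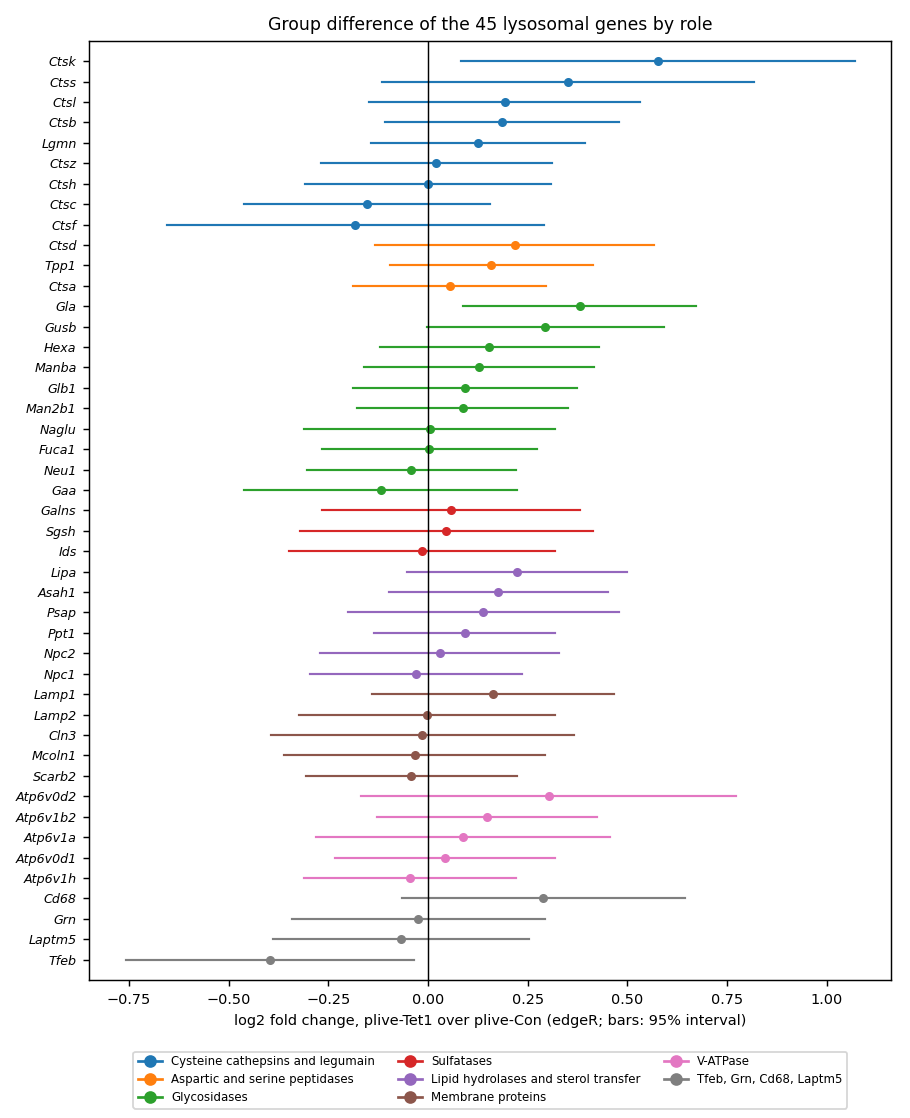
Log2 fold change of each member, plive-Tet1 over plive-Con, from edgeR; points are estimates, bars are 95% intervals, and colours are roles. Intervals of 42 of the 45 members include 0, and the exceptions are Gla (0.38) and Ctsk (0.58) above it and Tfeb (-0.40) below it.

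Gla, one of the glycosidases, encodes alpha-galactosidase A, the enzyme that removes terminal galactose from globotriaosylceramide and is deficient in Fabry disease. Its gene (ENSMUSG00000031266) lies on GRCm39 chromosome X, from 133488898 to 133501874 on the minus strand. It measured 17.6, 14.7, 12.7 and 14.8 CPM in plive-Con 1 to 4 and 21.2, 19.4, 18.4 and 18.7 CPM in plive-Tet1 1 to 4. Every plive-Tet1 library was above every plive-Con library, with plive-Tet1 3 (18.4 CPM) just above plive-Con 1 (17.6 CPM). The means were 14.9 ± 2.00 and 19.4 ± 1.25 CPM (SD, n = 4), and the log2 fold change was 0.38 ± 0.13 (SE, 95% interval 0.09 to 0.67). Gusb, on chromosome 5 from 130017852 to 130031890 (ENSMUSG00000025534), encodes beta-glucuronidase and measured 79.3, 68.4, 52.4 and 74.5 CPM in plive-Con and 84.2, 92.3, 79.5 and 80.7 CPM in plive-Tet1. The groups were separated only by the gap between plive-Con 1 and plive-Tet1 3, while plive-Con 3 was far below the rest. Its log2 fold change was 0.29 ± 0.14 (SE, 95% interval -0.002 to 0.59), and it was 0.16 without plive-Con 3.

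Gaa, acid alpha-glucosidase, the enzyme that degrades lysosomal glycogen, had one of the lower values, with 68.0, 62.4, 80.002 and 70.5 CPM in plive-Con and 54.1, 70.1, 83.1 and 51.3 CPM in plive-Tet1. The plive-Tet1 libraries spanned both the lowest and the highest of the 8 values, and the log2 fold change was -0.12 ± 0.16 (SE, 95% interval -0.46 to 0.22). It was -0.29 without plive-Tet1 3 and -0.023 without plive-Tet1 4. Of the 10 glycosidases, 8 had higher values and 2 lower, with a median of 0.09, and none was called. With DESeq2 size factors 6 of the 10 had a higher value and with library totals 9. The others were Hexa, the alpha chain of beta-hexosaminidase (0.15), Manba, beta-mannosidase (0.13), Glb1, beta-galactosidase (0.09), Man2b1, alpha-mannosidase (0.09), Naglu, which trims heparan sulfate (0.0044), Fuca1, alpha-fucosidase (0.0033), and Neu1, sialidase (-0.04). Glb1 shares its strand with Tmppe, whose counts were 11.9% of its own, so the split of reads between them is uncertain.

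Among the cysteine peptidases, Ctsk had the largest fold change of all 45 members. It encodes cathepsin K, the collagen-degrading cathepsin best known from osteoclasts, and its gene (ENSMUSG00000028111) lies on chromosome 3 from 95406567 to 95416673. It measured 9.04, 8.43, 5.81 and 6.09 CPM in plive-Con 1 to 4 and 14.8, 12.5, 8.05 and 8.53 CPM in plive-Tet1 1 to 4. The groups overlapped, since plive-Con 1 lay above plive-Tet1 3 and 4, and plive-Tet1 1 and 2 were the high libraries. The means were 7.34 ± 1.63 and 10.97 ± 3.24 CPM (SD, n = 4), with a log2 fold change of 0.58 ± 0.23 (SE, 95% interval 0.08 to 1.07). Ctss, cathepsin S, which trims the invariant chain of MHC class II, measured 377, 343, 225 and 237 CPM in plive-Con and 532, 370.3, 284 and 322 CPM in plive-Tet1. The highest library was plive-Tet1 1 and the groups overlapped, and the log2 fold change was 0.35 ± 0.22 (SE, 95% interval -0.12 to 0.82), or 0.14 without plive-Tet1 1.

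Ctsb, cathepsin B, measured 1649, 1541, 1396 and 1518 CPM in plive-Con and 1968, 1786, 1634 and 1549 CPM in plive-Tet1, with a log2 fold change of 0.18 ± 0.14 (SE, 95% interval -0.11 to 0.48), or 0.12 without plive-Tet1 1. Ctsz, cathepsin Z, a carboxypeptidase, measured 425, 487, 415 and 517 CPM and 516, 489, 468 and 398 CPM, with 0.02 ± 0.13 (SE, 95% interval -0.27 to 0.31). Ctsh, cathepsin H, an aminopeptidase, measured 303, 268, 355 and 399.8 CPM and 297, 336, 338 and 355 CPM, and its log2 fold change of 0.00026 ± 0.14 (SE) had a 95% interval of -0.31 to 0.31. In all 3 the groups overlapped, and plive-Con 4 was the highest library for Ctsz and Ctsh.

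Lower values were found for Ctsc and Ctsf. Ctsc encodes cathepsin C, the dipeptidyl peptidase that activates granule serine peptidases. It measured 125, 110.4, 107 and 83.4 CPM in plive-Con and 97.4, 86.4, 88.1 and 112 CPM in plive-Tet1. The lowest of all 8 libraries was plive-Con 4 although its group mean was the higher one, and the log2 fold change was -0.15 ± 0.14 (SE, 95% interval -0.46 to 0.15). It was -0.066 without plive-Con 1 and -0.25 without plive-Con 4. Ctsf, cathepsin F, measured 18.4, 14.8, 22.8 and 33.2 CPM in plive-Con and 15.2, 21.9, 20.03 and 21.5 CPM in plive-Tet1. Here plive-Con 4 was the highest library, and the log2 fold change of -0.18 ± 0.22 (SE, 95% interval -0.65 to 0.29) became 0.07 without it. Of the 9 cysteine peptidases, 7 had higher values, with a median of 0.13. Ctsl, cathepsin L, had 0.19 and Lgmn, the asparaginyl endopeptidase legumain, 0.13.

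All 3 aspartic and serine peptidases had higher values, with a median log2 fold change of 0.16. Ctsd measured 1041, 940.3, 719 and 905 CPM in plive-Con 1 to 4 and 1239.9, 1108, 1010.4 and 830.3 CPM in plive-Tet1 1 to 4. plive-Con 3 was the lowest and plive-Tet1 4 the next lowest, so the groups overlapped, and the log2 fold change was 0.22 ± 0.16 (SE, 95% interval -0.13 to 0.57), or 0.099 without plive-Con 3. Tpp1, tripeptidyl peptidase, which is lost in a late-infantile form of neuronal ceroid lipofuscinosis, measured 122, 110.0, 125 and 99.6 CPM in plive-Con and 116, 134, 131 and 129 CPM in plive-Tet1. Only plive-Tet1 1 lay within the range of the controls, and the log2 fold change was 0.16 ± 0.12 (SE, 95% interval -0.10 to 0.41), or 0.099 without plive-Con 4. Ctsa, the protective protein of beta-galactosidase and sialidase, had 0.05. Ctsa lies opposite Pltp, whose counts were 20.9% of its own, and the sources used here do not give whether counting used strand.

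The 3 sulfatases, which act on glycosaminoglycans, were low and did not separate. Sgsh measured 9.04, 7.77, 8.605 and 9.02 CPM in plive-Con and 7.32, 9.004, 11.3 and 7.92 CPM in plive-Tet1, and the plive-Tet1 libraries held both the lowest and the highest value. Galns, which acts on keratan and chondroitin sulfate, measured 23.2, 19.6, 17.97 and 27.8 CPM and 23.4, 22.4, 25.4 and 20.9 CPM. Their log2 fold changes were 0.05 ± 0.17 (SE) and 0.06 ± 0.15 (SE) in this order, with 95% intervals of -0.32 to 0.41 and -0.27 to 0.38. Ids, iduronate sulfatase, had -0.02, so 2 of the 3 had a higher value.

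In the lipid group, Lipa and Asah1 had the smallest p. Lipa encodes lysosomal acid lipase, which frees cholesterol and fatty acids from the esters that macrophages and hepatocytes take up. It measured 380.4, 328, 315 and 358 CPM in plive-Con 1 to 4 and 377, 467, 376 and 393 CPM in plive-Tet1 1 to 4. plive-Tet1 2 was the highest, and plive-Con 1 lay above plive-Tet1 1 and 3 by a narrow margin. The log2 fold change was 0.22 ± 0.13 (SE, 95% interval -0.05 to 0.50), or 0.13 without plive-Tet1 2. Asah1, acid ceramidase, measured 85.1, 76.3, 75.5 and 76.5 CPM in plive-Con and 98.8, 85.8, 71.4 and 98.2 CPM in plive-Tet1, with 0.18 ± 0.13 (SE, 95% interval -0.10 to 0.45). plive-Tet1 1 and 4 were its highest libraries and plive-Tet1 3 the lowest of the 8. Psap, the most abundant member, measured 1762, 1489, 1274 and 1806 CPM in plive-Con and 1879, 1929.7, 1704 and 1457 CPM in plive-Tet1. The overlap was wide, and the log2 fold change of 0.14 ± 0.16 (SE) had a 95% interval of -0.20 to 0.48 and became 0.024 without plive-Con 3. Ppt1, palmitoyl-protein thioesterase, had 0.09, Npc2, the soluble sterol carrier, 0.03, and Npc1, the membrane protein to which it hands cholesterol, -0.03. Ppt1 lies opposite Cap1, which collected 254% of its counts, so its reads cannot be assigned with certainty.

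Of the 5 membrane proteins, 1 had a higher value and 4 lower, with a median of -0.01, but with library totals all 5 had a higher value. Lamp1 measured 1265, 1135, 1254 and 1580.3 CPM in plive-Con 1 to 4 and 1416, 1569.8, 1462 and 1414 CPM in plive-Tet1 1 to 4. The highest library was plive-Con 4, whereas the other 3 controls lay below all plive-Tet1 libraries, and the log2 fold change was 0.16 ± 0.14 (SE, 95% interval -0.14 to 0.47). It was 0.10 without plive-Con 2 and 0.27 without plive-Con 4. Scarb2, the receptor LIMP-2 that carries glucocerebrosidase to the lysosome, measured 208, 185, 208 and 241 CPM in plive-Con and 196, 197, 197 and 227 CPM in plive-Tet1, with -0.04 ± 0.12 (SE, 95% interval -0.31 to 0.22). Cln3 measured 17.1, 16.4, 19.2 and 15.9 CPM and 14.2, 21.1, 20.3 and 12.5 CPM, with -0.01 ± 0.18 (SE, 95% interval -0.39 to 0.37), and the plive-Tet1 libraries again held the lowest and the highest value. It lies opposite Apobr, whose counts were 49.3% of its own. The signs of both differed with the scaling, since Scarb2 was 0.0073 and Cln3 0.04 with library totals. Lamp2, the receptor of chaperone-mediated autophagy in its A form, had -0.0017 and Mcoln1, the calcium channel TRPML1, -0.03.

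Of the V-ATPase subunits, 4 of 5 had a higher value, with a median of 0.09. Atp6v0d2, a d subunit of the membrane sector found in osteoclasts and macrophages, measured 32.04, 29.0, 20.3 and 19.1 CPM in plive-Con 1 to 4 and 43.4, 30.2, 21.5 and 28.8 CPM in plive-Tet1 1 to 4. plive-Tet1 1 was the highest and the groups overlapped, with a log2 fold change of 0.30 ± 0.22 (SE, 95% interval -0.17 to 0.77), or 0.097 without plive-Tet1 1. Its ubiquitous counterpart Atp6v0d1 had 0.04. Atp6v1b2, a subunit of the ATP-hydrolysing sector, measured 168, 130.4, 123 and 140.3 CPM in plive-Con and 159, 167, 142 and 155 CPM in plive-Tet1, with 0.15 ± 0.13 (SE, 95% interval -0.13 to 0.42). plive-Con 1 was its highest library and plive-Con 3 its lowest, and the value was 0.25 without the first and 0.066 without the other. Atp6v1a, the catalytic subunit, had 0.09 and Atp6v1h, a regulatory subunit, -0.05.

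Tfeb was the member with the smallest p among those with lower values. Its gene (ENSMUSG00000023990) lies on GRCm39 chromosome 17 from 48047955 to 48103344. It measured 9.91, 13.4, 13.3 and 11.8 CPM in plive-Con 1 to 4 and 11.4, 8.28, 9.06 and 8.02 CPM in plive-Tet1 1 to 4. plive-Tet1 2, 3 and 4 lay below every control, while plive-Tet1 1 lay above plive-Con 1. The means were 12.1 ± 1.65 and 9.20 ± 1.56 CPM (SD, n = 4), with a log2 fold change of -0.40 ± 0.17 (SE, 95% interval -0.76 to -0.04). The transcript level of Tfeb does not give its activity, which is known to be set by phosphorylation and entry into the nucleus. The members with the CLEAR core had values on both sides of 0 after TMM, but with library totals Cln3 had 0.04 and all 5 membrane proteins had a higher value. Gla and Ctsd had log2 fold changes of 0.38 and 0.22, Atp6v1a 0.09, Ctsa 0.05 and Atp6v0d1 0.04, against -0.01 for Cln3 and -0.03 for Mcoln1.

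Cd68, a glycoprotein of macrophage endosomes and lysosomes, measured 89.97, 85.4, 62.8 and 54.8 CPM in plive-Con 1 to 4 and 97.0, 98.7, 85.3 and 77.0 CPM in plive-Tet1 1 to 4. plive-Con 3 and 4 were low, the groups overlapped, and the log2 fold change was 0.29 ± 0.16 (SE, 95% interval -0.06 to 0.64), or 0.17 without plive-Con 4. Laptm5, a lysosomal membrane protein of blood cells, measured 143, 134, 102 and 127 CPM in plive-Con and 143, 123, 121 and 95.2 CPM in plive-Tet1. Its lowest library was plive-Tet1 4, and the log2 fold change was -0.07 ± 0.15 (SE, 95% interval -0.39 to 0.25). Grn, which encodes the precursor of the granulins, had -0.02.

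**Figure D4:**
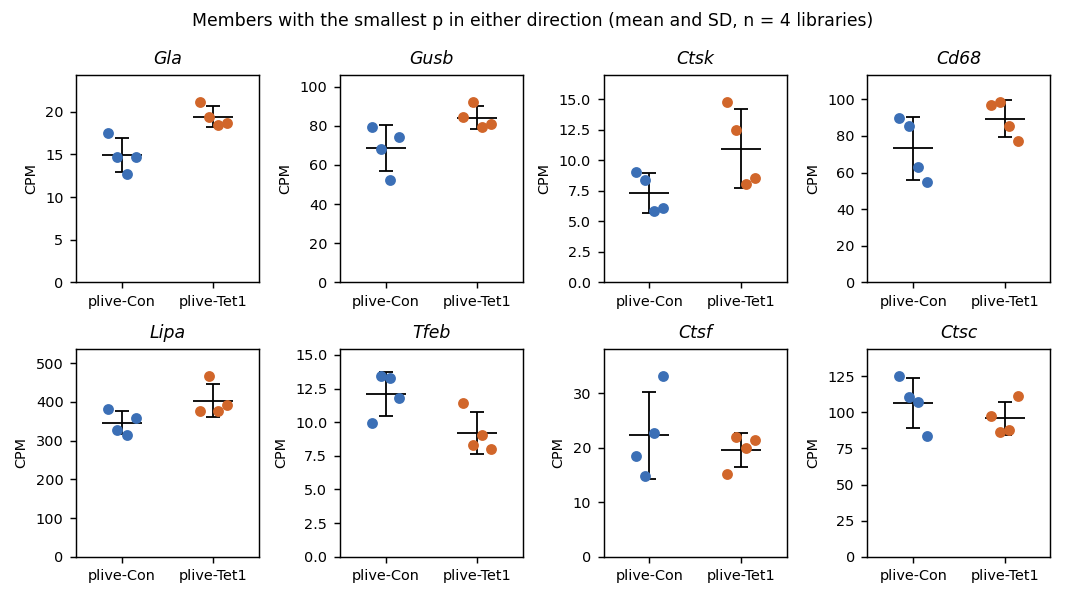
CPM of 8 members in each library, with group mean and SD (n = 4 libraries); points are libraries in the order 1 to 4 from left to right within a group, and the axes start at 0. Gla and Gusb are the members without overlap, plive-Tet1 1 lies among the controls for Tfeb, and plive-Con 4 is the highest point for Ctsf.

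Other genes of the pathway were read from the same fit. Of 91 other genes of lysosomal enzymes, membrane proteins, V-ATPase subunits, sorting, nutrient sensing and autophagy, 88 were tested, 55 had higher and 33 lower values, the median was 0.06 and 0 were called by edgeR or by DESeq2 at an adjusted p of 0.05. With library totals 66 had higher and 22 lower values, with a median of 0.10. Of all genes, 52.0% had a higher value after TMM, and 8972 of 14533 did with library totals, where their median was 0.05. At an unadjusted p under 0.05, edgeR counted 3 pathway genes with higher values, Sort1, Gnptab and Rragd, against 1.91% of all genes. It counted 1 with a lower value, Lamtor4, against 2.16%. The CPM values of the groups did not overlap for 2 of the 88, against 2.28% of all genes. Of the 10 sorting genes 9 had higher values. Sort1, the sorting receptor sortilin, measured 39.5, 35.0, 44.2 and 29.7 CPM in plive-Con and 39.3, 53.1, 54.95 and 42.2 CPM in plive-Tet1, with a log2 fold change of 0.35 ± 0.15 (SE). Gnptab, which encodes the enzyme that adds the mannose 6-phosphate tag, measured 21.4, 19.0, 16.9 and 18.5 CPM and 21.0, 23.7, 24.7 and 23.0 CPM, with 0.28 ± 0.12 (SE). Igf2r, the large receptor for that tag, measured 61.2, 61.0, 62.3 and 64.4 CPM and 65.6, 79.9, 76.4 and 65.6 CPM, with 0.21 ± 0.11 (SE), and its groups did not overlap. Their 95% intervals were 0.02 to 0.69, 0.02 to 0.55 and -0.03 to 0.45, and like all the pathway genes tested they had an edgeR adjusted p that rounded to 1.00.

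In the list of MiT/TFE factors and nutrient sensing, 7 of 16 genes had higher values, and 10 of 16 with library totals. Rragd, a Rag GTPase of the lysosomal surface and a known target of MiT/TFE factors, measured 13.0, 11.3, 6.57 and 10.6 CPM in plive-Con and 20.8, 16.9, 14.3 and 12.1 CPM in plive-Tet1, with 0.63 ± 0.22 (SE, 95% interval 0.16 to 1.10). plive-Con 1 lay above plive-Tet1 4, and plive-Con 3 was the lowest. Lamtor4, a subunit of the Ragulator complex that anchors the Rag GTPases, measured 60.4, 62.3, 59.1 and 63.9 CPM and 59.9, 41.0, 52.8 and 43.4 CPM, with -0.32 ± 0.13 (SE, 95% interval -0.61 to -0.03). Mitf, a relative of Tfeb, had 0.23. Among 16 autophagy genes 10 had higher values, and the smallest p belonged to Wipi1 (0.26), Sqstm1, the cargo receptor p62 (0.27), and Map1lc3a (-0.23). Among 20 other hydrolases and cofactors 15 had higher values, among them Aga (0.22) and Arsb (0.24). Of 13 tested membrane proteins 8 were higher (among them Abca2 0.23, Tpcn2 0.18), as were 6 of 13 tested V-ATPase subunits (Atp6v0a1 0.18, Atp6v0e 0.15, with Atp6v1f at -0.14).

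Because several members are macrophage genes, their levels were set beside 12 macrophage markers, none of them a member. The markers summed to 2111, 1948, 1563 and 1506 CPM in plive-Con 1 to 4 and to 2586, 2124, 1972 and 1943 CPM in plive-Tet1 1 to 4. plive-Con 3 and 4 were low, plive-Tet1 1 was high, and the groups overlapped. None of the 12 was at 0 in all libraries and 9 had a higher value in plive-Tet1, with a median log2 fold change of 0.13. Lyz2, lysozyme, made up much of the sum, with 837, 741, 518 and 434 CPM in plive-Con and 1197, 897, 741 and 772 CPM in plive-Tet1. All 7 markers of lipid-associated macrophages had higher values, with a median of 0.43, and their sums ran from 573 to 1129 CPM in plive-Con and from 914 to 1624 CPM in plive-Tet1. Spp1 is among them and is also counted with the cholangiocyte markers read below. Of 7 Kupffer cell markers 6 had lower values, with a median of -0.12, and the smallest p belonged to Cd163 (-1.27) and Clec4f (-0.36). Their sums ran from 692 to 935 CPM in plive-Con and from 588 to 996 CPM in plive-Tet1, with the lowest and the highest library both in plive-Tet1. Neither edgeR nor DESeq2 called any of these markers. At an unadjusted p under 0.05 edgeR counted 1 of the 12 macrophage markers and 2 of the lipid-associated ones with higher values, against 1.91% of all genes. It counted 2 Kupffer cell markers with lower values, against 2.16%. The part of these markers in the group differences of the members was not tested.

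Across the 8 libraries, whatever their group, the levels of the members were compared with the macrophage index, the log2 of the summed CPM of the 12 markers, and no correlation of a member passed the adjusted test. The correlation of log2 CPM with the index was computed for all 14533 genes, with an exact permutation test over all orders of the 8 libraries and Benjamini-Hochberg adjustment. At an adjusted p of 0.05, 0 members and 0.00% of all genes were called, and the smallest adjusted p of a member was 0.194. Over 8 libraries the smallest p this permutation test allows is 2.48e-05. After adjustment over 14533 genes, a call therefore needs several genes at or near that value together. At an unadjusted p under 0.05 there were 9 members with a positive correlation, against 6.10% of all genes, and 1 with a negative one, against 5.00%. The members with a positive correlation were Ctss, Ctsk, Cd68, Atp6v0d2, Ctsb, Gla, Ctsl, Ctsd and Lgmn, and the one with a negative correlation was Ctsf. The median Pearson r was 0.33 for the members and 0.04 for all genes.

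Ctss had the highest Pearson r among the members, at 0.96 (exact permutation p = 0.000546), with a Spearman rho of 0.88 (p = 0.00724) over n = 8 libraries. Without plive-Con 4 and plive-Tet1 1, the libraries farthest from the median of the index, r was 0.93, and with the group means subtracted it was 0.97. For Ctsk the exact permutation test gave r = 0.95 (p = 0.000744) and rho = 0.88 (p = 0.00724), with 0.89 over the 6 remaining libraries and 0.91 after centring on the groups. Cd68 had r = 0.92 (exact p = 0.000347) and rho = 0.95 (p = 0.00114), with 0.96 without those libraries and 0.89 within groups. In all 3, r lay between 0.89 and 0.97 both without the extreme libraries and with the group means subtracted. Atp6v0d2 had r = 0.92 (exact p = 0.000818) and rho = 0.90 (p = 0.00456), falling to r = 0.77 over the 6 libraries, and Ctsb had r = 0.90 (exact p = 0.00449) and rho = 0.95 (p = 0.00114), with 0.91. Adjusted p was 0.194 for the first 4 of these genes and 0.245 for Ctsb.

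At the other end, Ctsf had r = -0.76 (exact p = 0.0278, adjusted p = 0.385) and rho = -0.60 (p = 0.132). Without the extreme libraries r was -0.32 over the other 6. It was -0.59 without plive-Con 4 alone and -0.69 without plive-Tet1 1 alone. Ctsh had r = -0.66 (exact p = 0.0702) and rho = -0.71 (p = 0.0576), with -0.35 without both extreme libraries. Scarb2 had r = -0.57 (exact p = 0.136) and rho = -0.67 (p = 0.0831), with -0.18 without both. Their adjusted p were 0.492 and 0.605. With the group means subtracted, r over the 8 libraries was -0.82 for Ctsf, -0.86 for Ctsh and -0.60 for Scarb2. Tfeb had r = -0.34 and Lamp1 r = -0.01, with exact permutation p of 0.416 and 0.978. Gla, with the smallest p between the groups, had r = 0.85 (exact p = 0.00680) and rho = 0.74 (p = 0.0458), with 0.84 over the 6 libraries and 0.79 within groups. With the markers standardised and averaged in place of summed, which gives each marker the same weight, r was 0.88 for Ctss, 0.82 for Ctsk and 0.72 for Gla. The heat map of members ordered by r shows this gradient.

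**Figure D5:**
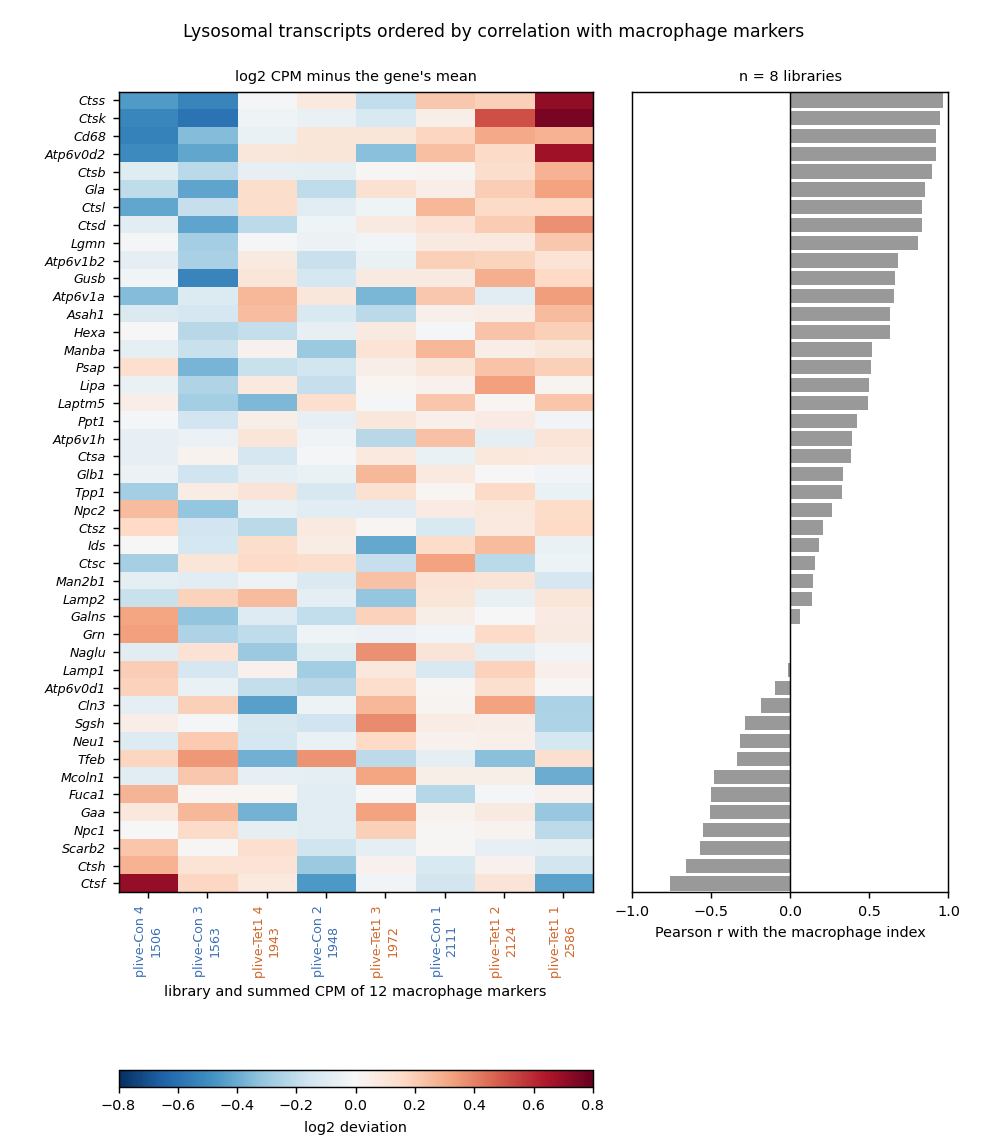
Left, log2 CPM of each member minus its mean over the 8 libraries (colour), with libraries ordered from the lowest (plive-Con 4, 1506 CPM) to the highest (plive-Tet1 1, 2586 CPM) sum of the 12 macrophage markers. Right, Pearson r of each member with the macrophage index, from 0.96 for Ctss at the top to -0.76 for Ctsf at the bottom.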

How the data were processed

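Total RNA of mouse liver was sequenced in 8 libraries as paired reads of 150 bases, per the labels' protocols. Reads were handled with cutadapt 1.9.1, HISAT2 2.2.1 and HTSeq 0.6.1 on GRCm39, per the submitters' processing notes. The deposited table holds a raw count and an FPKM value per gene and library, per the file headers. FPKM recomputed from the counts differed from the authors' values by at most 0.005, which is their rounding. The sources used here give neither strand setting nor annotation, which leaves reads of overlapping genes uncertain. The labels number the libraries but do not say that each came from its own animal, and p-values then reflect only the spread between libraries, which may be technical. Counts of libraries within a group differed beyond sampling error, with chi-square values per degree of freedom of 12.9 to 77.6.

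The main test was edgeR 4.0.16 (R 4.3.3) with quasi-likelihood fits on the counts of all genes, filterByExpr (14533 genes), TMM scaling, group as the only term, two-sided tests and Benjamini-Hochberg adjustment over all tested genes at 0.05. DESeq2 1.42.0 and limma 3.58.1 were alternatives, as were other filters, scalings, pseudocounts, a replicate block and leaving out each library. SE and 95% intervals were derived from the quasi-likelihood F statistic. Correlations used log2 CPM with a prior count of 2. The scripts were tested on simulated data. All 45 members are named. Values in every library are given for the 5 smallest p in each direction, the 2 smallest in each role, the 5 highest and 3 lowest levels, and the 5 highest and 3 lowest correlations with the macrophage index. Of 6 other pathway lists, the 3 smallest p are named, except for genes that are not reported here. The members and lists were chosen with earlier results of these data known.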

Additional observations from a re-analysis of the deposited data

Results flagged for a closer look

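In 6 of the 90 groups of 4 libraries examined (45 members in each group of libraries), 1 library stood far from the other 3 by Dixon's criterion at 95%, where chance flags about 1 in 20 groups, or 4.5 here. Ctsl measured 1344 CPM in plive-Tet1 3 against 1515 to 1535 CPM in the other libraries of its group. Ctsa measured 207 CPM in plive-Tet1 4 against 239 to 240.4 CPM, and Scarb2 measured 227 CPM there against 196 to 197 CPM. In plive-Con 1, Man2b1 measured 167 CPM against 142 to 146 CPM in the other controls, Asah1 85.1 CPM against 75.5 to 76.5 CPM, and Atp6v1h 72.2 CPM against 58.7 to 60.2 CPM. The criterion itself requires that the remaining 3 libraries lie close together relative to the range.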

How the results depend on the processing

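Members called stayed at 0 under every alternative run. The count of all genes called moved from 0 to 11 with DESeq2 and to 132 with no filter on low counts (33 higher, 99 lower). Of 475 values for 25 members under 19 alternatives, 31 reversed their sign, in 8 members, and 17 members kept theirs; the cause was not tested. Cln3 became 0.039 with library totals, 0.0056 with limma on log2(FPKM + 0.5), with or without a mean FPKM of at least 1, and 0.0080 with log2(FPKM + 1). Scarb2 became 0.0073, 0.0090 and 0.0088 under these settings in the same order. Ctsh became -0.014 with DESeq2 and with DESeq2 size factors, -0.011 with no filter on low counts and -5.62e-06 with more than 80 counts in all. Leaving out 1 library at a time gave ranges of -0.14 to 0.11 for Cln3, -0.33 to 0.074 for Ctsf, -0.089 to 0.10 for Ctsh, -0.052 to 0.091 for Ctsz, -0.056 to 0.19 for Galns, -0.18 to 0.031 for Laptm5, -0.099 to 0.029 for Scarb2 and -0.11 to 0.13 for Sgsh, of 24 to 33 for the members with a higher value and of 0.03 to 0.10 for their median. With the replicate number as a block, edgeR called 0 genes and 0 members, 30 members had a higher value, their median was 0.07, and 5 members had an unadjusted p under 0.05. Libraries with the same number correlated between -0.04 and 0.07 in their deviations from the group means. Those with different numbers correlated between -0.19 and 0.315. These values show no pairing by number, but they are too few to exclude one. The smallest adjusted p of a member under any alternative was 0.365, with no filter on low counts. Correlations with the macrophage index called 0 genes in every setting. However, the smallest p the test allows was 0.000198 with 1 library left out and 0.00174 with the group means subtracted. At such values a call needs many genes to reach the smallest p together, so 0 calls there says little. The 95% interval given for each member, from 4 libraries per group, is not adjusted for the 14533 genes tested. Those of Gla, Ctsk and Tfeb excluded 0, yet no member was called.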

Other observations

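Besides macrophage markers, other cell type markers were read from the same fit, and neither edgeR nor DESeq2 called any of them. At an unadjusted p under 0.05, edgeR counted 4 markers of T and NK cells, 3 of B and plasma cells and 3 of sinusoidal endothelial cells. All had lower values, as 2.16% of all genes did at that p. All 6 T and NK cell markers had lower values in plive-Tet1, with a median of -0.76 on the log2 scale and sums of 9.83 to 35.2 CPM in plive-Con and 12.7 to 18.7 CPM in plive-Tet1. Of 5 B and plasma cell markers 4 were lower (median -0.77), as were 5 of 6 markers of sinusoidal endothelial cells (median -0.36), 6 of 9 of hepatocytes (-0.09) and 3 of 4 tested of neutrophils (-0.27). Of 6 stellate cell markers 4 were higher (median 0.08), and of 5 cholangiocyte markers 3 (0.10). The cholangiocyte list shares Spp1 with the list of lipid-associated macrophages. The part of these cell type markers in the members' values was not tested.

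With the 9 hepatocyte markers in place of the macrophage markers, 1 of 45 members reached an unadjusted p under 0.05. Among all 14533 genes 920 did, which is a larger share. The member was Ctsz (r = -0.81 over 8 libraries, exact permutation p = 0.0229, adjusted p = 0.781). The other 91 genes of the pathway had a promoter window in 71 cases. The CLEAR core was in 7 of these (9.86%) and the E-box in 17 (23.9%), both above the shares of all genes and below those of the members. As for the members, these shares are a description and not an independent result. The core was in 2 of 7 sorting genes and in none of 12 autophagy genes.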
